A study of Callithrix jacchus with 39 samples.

Results

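The regions described here are the active chromatin regions of chromosome 3 in the common marmoset, Callithrix jacchus, a New World primate. They were chosen by position alone, as all peaks on chromosome 3 in 31 ChIP-seq peak lists, which gave 34961 of 872404 peaks. Of these, 23027 were peaks of H3K27ac and 11934 were peaks of H3K4me3. H3K27ac peaks of a tissue that overlapped a peak of the other replicate by at least 1 bp were kept and merged, first within the tissue and then over tissues. This catalogue held 2858 regions on chromosome 3, 59125 on the 21 other autosomes and 65161 in all. Chromosome 3 was singled out with its low density of regions already known, so the density values below describe the chromosome and are not independent evidence that it is sparse.

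The study profiled both histone marks in digestive organs (stomach, colon, liver and pancreas), in muscle tissues (heart and skeletal muscle), in kidney and in spleen. There were 2 lists of each mark for a tissue, but 1 for H3K4me3 in heart, and each tissue also had 1 input sample, which was not analysed here. The labels give the tissue and the antibody, and no treatment, age, sex, strain or animal, so p-values measure the spread between these samples and tissues, which may be technical in part. All groups are bulk tissue from one species, and the labelled tissues could not be checked against marker genes because the peaks carry no gene names.

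Acetylation of H3K27 is found on nucleosomes beside active promoters and active enhancers, the DNA elements that raise transcription of a gene from a distance. Methylation of H3K4 to the trimethyl form is found mainly at promoters, so the pair of marks is widely used to sort acetylated regions. Promoter activity is known to be shared among many tissues, whereas enhancers are known to differ strongly from one tissue to another. Here a region with no overlap of any of the 15 H3K4me3 lists is called enhancer-like, and the others promoter-like. These names follow the marks alone, and no gene or transcript was used.

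Chromosome 3 was long and thinly marked. It reached 190.802 Mb from its first base to the last peak, the rank 3 length among the 22 autosomes, and held 14.98 catalogue regions per Mb against 24.3 on the other autosomes pooled. This was the lowest density of the 22. Chromosome 21 followed with 17.6 regions per Mb and chromosome 16 with 18.1, and chromosome 22 stood at the other end with 50.4. The catalogue covered 1.99% of chromosome 3 and 3.28% of the other autosomes. Enhancer-like regions numbered 1910 and promoter-like regions 948, at 10.01 and 4.97 per Mb, against 15.6 and 8.68 per Mb on the other autosomes. Both classes were therefore less dense on chromosome 3 than on any other autosome. Density is given per Mb of assembled position, and assembly gaps and mappability were not analysed here.

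**Figure D1:**
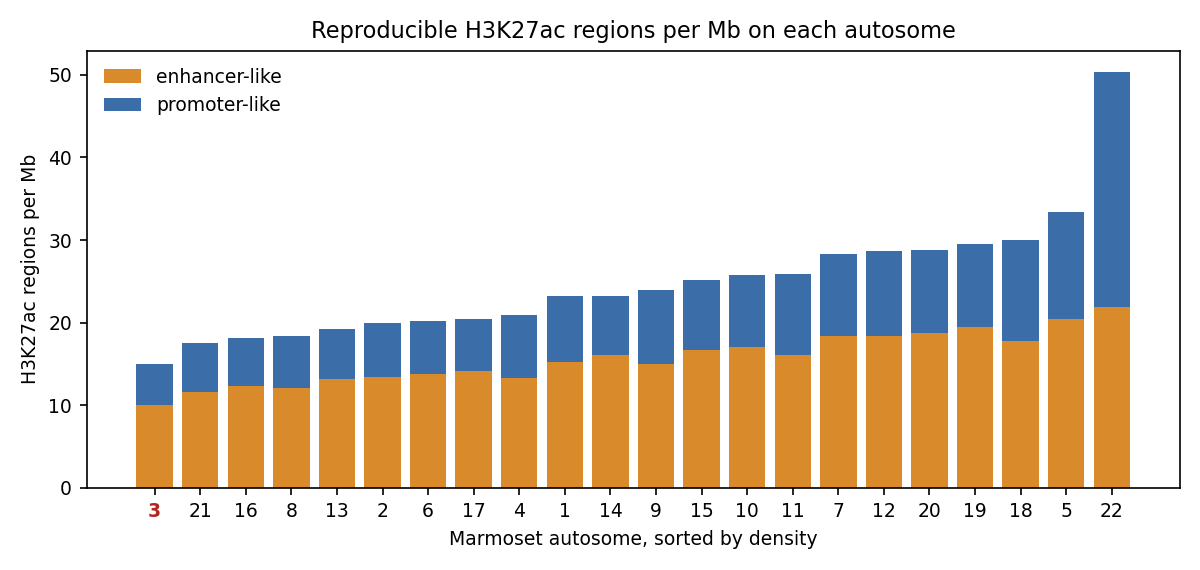
Catalogue regions per Mb on each of the 22 autosomes, sorted by density, with enhancer-like regions stacked below promoter-like ones. Chromosome 3 stands first with 14.98 regions per Mb and chromosome 22 last with 50.4.

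The low density was present in the separate lists. The 16 H3K27ac lists held between 911 peaks on chromosome 3 (heart, replicate 2) and 2019 (liver, replicate 2), with a median of 1423.5. The 15 H3K4me3 lists held between 646 (spleen, replicate 1) and 931 (skeletal muscle, replicate 2), with a median of 824. The H3K4me3 lists thus spanned a narrower range than the H3K27ac lists. Chromosome 3 had the lowest peak density of the 22 autosomes in 15 of 16 H3K27ac lists and in 13 of 15 H3K4me3 lists. In the other 3 lists, colon H3K27ac replicate 1, heart H3K4me3 replicate 2 and skeletal muscle H3K4me3 replicate 1, it was second to chromosome 21. In bulk tissue, a region marked in few cells and a region weakly marked in all cells cannot be told apart, and read depth per library is unknown, so a region without a peak is one where none was called.

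Averaged over replicates within each tissue, H3K27ac density on chromosome 3 was lowest in heart at 5.04 peaks per Mb, had a median of 7.09 and was highest in liver at 10.3. On the other autosomes the same lists gave 9.57, 12.9 and 18.2 peaks per Mb as lowest, median and highest. The log2 ratio of the densities was negative in 8 of 8 tissues, with a mean of -0.81 ± 0.09 (SD, n = 8 tissues), a 1.75-fold lower density. An exact two-sided sign-flip permutation test over the 8 tissues gave p = 0.00781, the smallest that its 256 sign patterns allow, and 0.0137 after Benjamini-Hochberg adjustment over 14 planned tests. The 8 tissues share the one chromosome 3, so this test compares tissues and cannot compare chromosomes of its kind. Chromosome 3 was chosen with its low density known, so the direction of this test was fixed by that choice. The same holds for the later tests of lower density and of empty windows.

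H3K4me3 was also less dense on chromosome 3. Its density was 4.15 ± 0.36 peaks per Mb on chromosome 3 and 7.33 ± 0.57 on the other autosomes (SD, n = 8 tissues), a log2 ratio of -0.82 ± 0.03 that was negative in 8 of 8 tissues (p = 0.00781 and adjusted p = 0.0137 in the exact permutation test). The difference between the marks in this ratio was 0.01 ± 0.09 (SD, n = 8 tissues), positive in 4 of 8 tissues, and did not pass the exact permutation test (p = 0.742). Restricted to the 20000 strongest peaks of each list, the difference between the marks became 0.070 and passed the exact permutation test (adjusted p = 0.0398), and against the median of the other autosomes it turned to -0.014. A lasting difference between the marks was therefore not shown.

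On chromosome 3, reproducible regions of a tissue numbered between 559 in heart and 1254 in liver, with 740 in spleen, 798 in kidney, 854 in stomach, 900 in skeletal muscle, 920 in pancreas and 1101 in colon between them. In each of these 8 tissues the density of such regions was the lowest of the 22 autosomes. The mean density was 4.67 ± 1.12 regions per Mb against 8.49 ± 1.75 (SD, n = 8 tissues), a log2 ratio of -0.87 ± 0.09 (p = 0.00781 and adjusted p = 0.0137, exact two-sided sign-flip permutation test).

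The class of these regions showed where tissues agreed and where they differed. Promoter-like regions ranged from 486 in heart to 630 in liver, and their log2 density ratio lay between -0.97 in heart and -0.87 in kidney, with a mean of -0.92 ± 0.03 (SD, n = 8 tissues). Enhancer-like regions ranged from 73 in heart to 624 in liver, and their log2 ratio ran from -1.33 in heart to -0.50 in colon, with a mean of -0.83 ± 0.25. Both ratios were negative in 8 of 8 tissues (exact two-sided sign-flip permutation test, p = 0.00781 and adjusted p = 0.0137 for each). The shortfall of promoter-like regions was thus nearly the same from tissue to tissue, and the shortfall of enhancer-like regions was spread widely. The spread between tissues was not tested, and heart, with its low ratio, also had the fewest enhancer-like regions.

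The mix of classes did not separate chromosome 3 from the other autosomes by the tests run. The enhancer-like share of a tissue's regions was 13.1% in heart at the lowest, 33.5% at the median and 49.8% in liver at the highest, and its mean was 35.0 ± 11.3% against 33.1 ± 9.39% elsewhere (SD, n = 8 tissues). The difference of 1.83 ± 3.07 percentage points was positive in 5 of 8 tissues (p = 0.148 and adjusted p = 0.173 in the exact permutation test). The enhancer-like log2 density ratio exceeded the promoter-like one by 0.09 ± 0.23 (SD, n = 8 tissues), which also missed the threshold in the exact permutation test (p = 0.281, adjusted p = 0.303). Without heart H3K27ac replicate 2, which leaves heart with its single remaining list, the difference in share was 2.31 points and that in log2 ratio 0.15, each with an adjusted p of 0.0398 by the exact permutation test. Neither difference had passed with all lists. Classed by H3K4me3 of the same tissue, the difference in share was 0.571 points and that in log2 ratio 0.022, and against the median of the other autosomes the difference in share was 0.721 points.

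**Figure D2:**
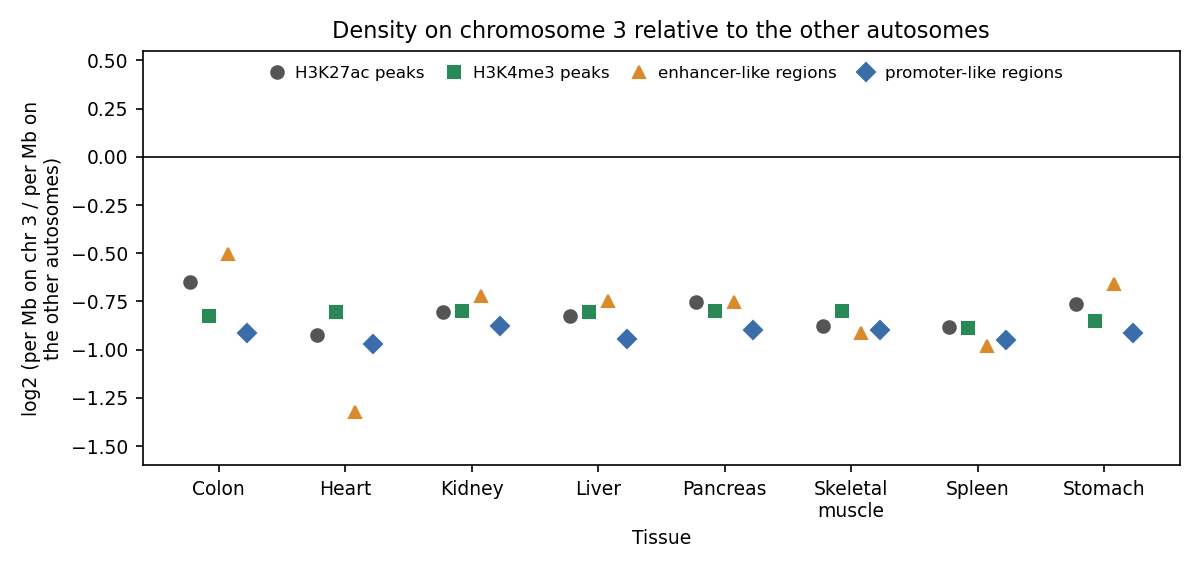
log2 ratio of density on chromosome 3 to density on the 21 other autosomes, for each of the 8 tissues, for H3K27ac peaks, H3K4me3 peaks, enhancer-like regions and promoter-like regions. All points lie below 0, and the enhancer-like points spread from -1.33 in heart to -0.50 in colon while the promoter-like points stay between -0.97 and -0.87.

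Tissues also gave chromosome 3 unequal shares of their autosomal H3K27ac peaks, from 3.97% in heart to 4.76% in colon as means of the replicates. The range of 0.798 percentage points compares with a mean absolute difference between replicates of 0.228 points. A two-sided permutation test with 100000 relabellings of the 16 lists gave p = 0.0564 and adjusted p = 0.0789, so the tissues were not shown to differ. Colon had both the highest share and one of the largest replicate differences, 5.02% in replicate 1 against 4.51% in replicate 2, and without replicate 2 the adjusted p was 0.0228 by the same permutation test.

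Colon replicate 1 also shared fewer of its chromosome 3 peaks with its partner. It had 1928 peaks there, of which 60.2% overlapped replicate 2, against 68.3% of its peaks on the other autosomes. Replicate 2 had 1511 peaks, of which 86.8% overlapped replicate 1, against 85.7% elsewhere. Over all tissues, replicate overlap of H3K27ac peaks was 68.7 ± 4.03% on chromosome 3 and 71.5 ± 3.56% on the other autosomes (SD, n = 8 tissues). The difference of -2.79 ± 1.38 points was negative in 8 of 8 tissues (exact two-sided sign-flip permutation test, p = 0.00781, adjusted p = 0.0137). It was -0.61 points at its smallest, in liver, and -4.14 at its largest, in spleen.

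The chromosome 3 peaks that were called ranked slightly higher within their lists by the authors' fold enrichment. The median percentile of chromosome 3 peaks was 48.6 in stomach at the lowest, 51.6 at the median and 55.4 in skeletal muscle at the highest, and the mean difference from the other autosomes was 2.33 ± 2.23 percentile points (SD, n = 8 tissues). It was positive in 6 of 8 tissues (exact two-sided sign-flip permutation test, p = 0.0313, adjusted p = 0.0486). This call was lost when any of 5 lists was left out, colon replicate 2, liver replicate 2, pancreas replicate 1, spleen replicate 2 or stomach replicate 1, with values of 2.05 to 2.24 points and adjusted p from 0.0729 to 0.0875 in the exact permutation test. Among the 20000 strongest peaks of each list the difference was 0.628 percentile points. Median region length was 1032 ± 94.1 bp on chromosome 3 and 1001 ± 90.6 bp elsewhere (SD, n = 8 tissues), a difference of 31.1 ± 39.5 bp that did not pass the exact permutation test (adjusted p = 0.0994). Restricted to the 20000 strongest peaks of each list, the difference in length was 40.4 bp and passed (exact permutation test, adjusted p = 0.0137), while it was 16.9 bp with an overlap of at least 50% and 17.6 and 17.7 bp without colon replicate 1 or 2, where it did not pass.

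Most chromosome 3 regions were found in 1 tissue. Of the 2858 regions, 1809 (63.3%) came from 1 tissue and 282 (9.87%) from all 8, against 58.7% and 11.5% on the other autosomes. Chromosome 3 had the third highest share of 1-tissue regions among the 22. Among enhancer-like regions, 1529 of 1910 (80.1%) were found in 1 tissue, 262 in 2, 72 in 3 and 32 in 4, and the numbers fell to 10, 3, 2 and 0 for 5, 6, 7 and 8 tissues. Among promoter-like regions, 280 of 948 (29.5%) were found in 1 tissue and 282 in all 8, with between 48 and 119 at each breadth from 2 to 7. Enhancer-like regions thus thinned out steadily with breadth, while promoter-like regions piled up at both ends. The other autosomes had the same shape, with 77.99% of their enhancer-like regions found in 1 tissue. Of their promoter-like regions, 31.97% were found in all 8 tissues, against 29.7% on chromosome 3. The share of 1-tissue promoter-like regions was 24.1% on the other autosomes and ranked chromosome 3 second of 22.

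Length went with breadth. Enhancer-like regions of 1 tissue had a median length of 760 bp and those of 4 tissues 2158 bp. Promoter-like regions of 1 tissue had a median of 1074 bp and those of all 8 tissues 2199 bp. Regions merged over more tissues can only grow in span, so these lengths are a description of the merged catalogue. Enhancer-like regions lay at a median of 26.1 kb from the nearest H3K4me3 peak of any list, against 19.4 kb on the other autosomes.

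A stricter measure required that no H3K27ac list of the other tissues, 14 in number, overlapped the region at all. Such restricted regions made up between 3.04% of the regions in heart (17 of 559) and 28.8% in liver (361 of 1254), with a median over tissues of 11.8%. Colon had 273, skeletal muscle 216, pancreas 103, spleen 92, kidney 83 and stomach 68. The mean share was 15.3 ± 9.27% on chromosome 3 and 12.1 ± 8.01% elsewhere (SD, n = 8 tissues). The difference of 3.21 ± 2.41 percentage points was positive in 8 of 8 tissues, from 0.89 in heart to 7.82 in colon (exact two-sided sign-flip permutation test, p = 0.00781, adjusted p = 0.0137). With each list left out in turn the mean difference stayed between 2.998 and 3.750 points and passed. Restricted regions were therefore a larger part of the regions on chromosome 3 than on the other autosomes, and the largest difference was in colon, the tissue whose replicates differed most in their chromosome 3 share.

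The share of restricted regions was not shown to differ from that of the chromosomes next in density. Against chromosome 21 the difference was 1.35 ± 3.75 points and positive in 4 of 8 tissues, and against chromosome 16 it was 1.56 ± 2.61 points and positive in 5 of 8 (SD, n = 8 tissues). Both missed the threshold of the exact two-sided sign-flip permutation test, with adjusted p of 0.516 and 0.312 over 6 tests that were added after the values were seen. Among the 20000 strongest peaks of each list these differences were 0.178 points from chromosome 21 and 0.474 points from chromosome 16. Without spleen H3K27ac replicate 1 the difference from chromosome 16 was 1.98 points with an adjusted p of 0.0313 by the exact permutation test. The enhancer-like share differed by -0.15 ± 3.02 points from chromosome 21 and by -0.70 ± 3.12 points from chromosome 16 (SD, n = 8 tissues; exact permutation test, adjusted p = 0.898 and 0.637). The log2 density ratios were -0.24 ± 0.09 to chromosome 21 and -0.37 ± 0.09 to chromosome 16 (SD, n = 8 tissues). These chromosomes were picked by their rank in density, so the direction of both ratios was fixed by that choice and no test is given.

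Across the 22 autosomes, density ran against the share of 1-tissue regions (Pearson r = -0.92, Spearman rho = -0.84), against the enhancer-like share (r = -0.86, rho = -0.68) and against the share of the chromosome in long gaps (r = -0.67, rho = -0.79). These are descriptions over 22 points that share the same 31 lists and differ in length, and no p is given. Without chromosome 22 the rank correlations were -0.81, -0.64 and -0.76. Chromosome 3 lay at the sparse end of all 3 relations.

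**Figure D3:**
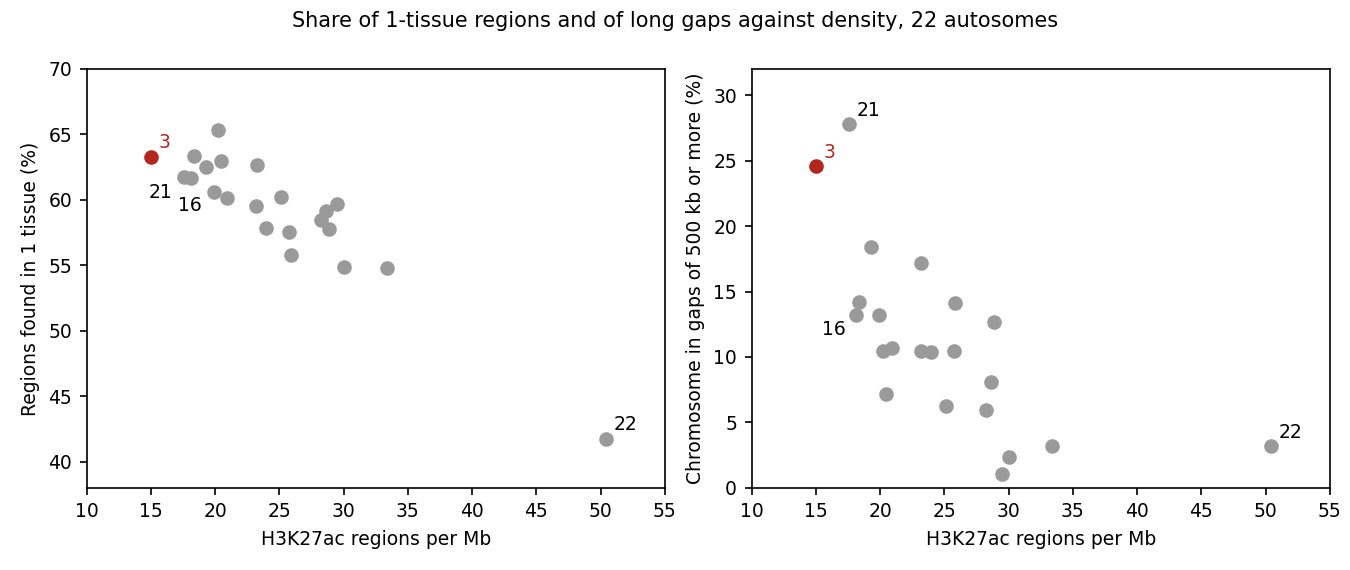
Share of catalogue regions found in 1 tissue (left) and share of the chromosome in gaps of 500 kb or more (right) against catalogue regions per Mb, 1 point for each of the 22 autosomes. Chromosome 3, in red, lies at 14.98 regions per Mb with 63.3% of its regions in 1 tissue and 24.6% of its length in gaps.

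Regions were unevenly placed along the chromosome. Of its 191 windows of 1 Mb, 25 (13.1%) held no catalogue region, the highest share of the 22 autosomes, and 71 (37.2%) held 5 or fewer. Windows with 20 or more regions made up 29.3%, the lowest share of the 22, where the median of the other autosomes was 54.5%. The densest 10% of windows held 31.5% of the regions, the second highest share of the 22. Low density on chromosome 3 was thus made of many empty or nearly empty windows beside a limited number of filled ones. Chromosome 21, the next in density, was much alike. Of its windows, 39.2% held 5 or fewer regions and 29.4% held 20 or more, and its densest 10% held 35.6% of its regions.

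Density was higher near both ends of chromosome 3 than in the part between them as a whole. The first 10 Mb held 22.8 regions per Mb and the last 10.8 Mb held 34.3, while the 170 Mb between them held 13.3. Most filled windows were still inner ones, since 45 of the 56 windows with 20 or more regions lay in those 170 Mb, 4 in the first 10 Mb and 7 in the last part. In windows of 10 Mb the density was lowest between 10 and 20 Mb, at 5.60 regions per Mb, and highest between 180 and 190 Mb, at 35.8. The 5 densest windows of 1 Mb, in calJac3 coordinates, started at positions 184000001 and 4000001 with 61 regions each, at 3000001 with 60, at 187000001 with 58 and at 150000001 with 55. In the window from 4000001 to 5000000, 9 regions were found in all 8 tissues, and in the window from 3000001 to 4000000 none of the 60 was. Even these were modest, since the densest window of chromosome 3 ranked 21 of 22 among the densest windows of the autosomes.

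**Figure D4:**
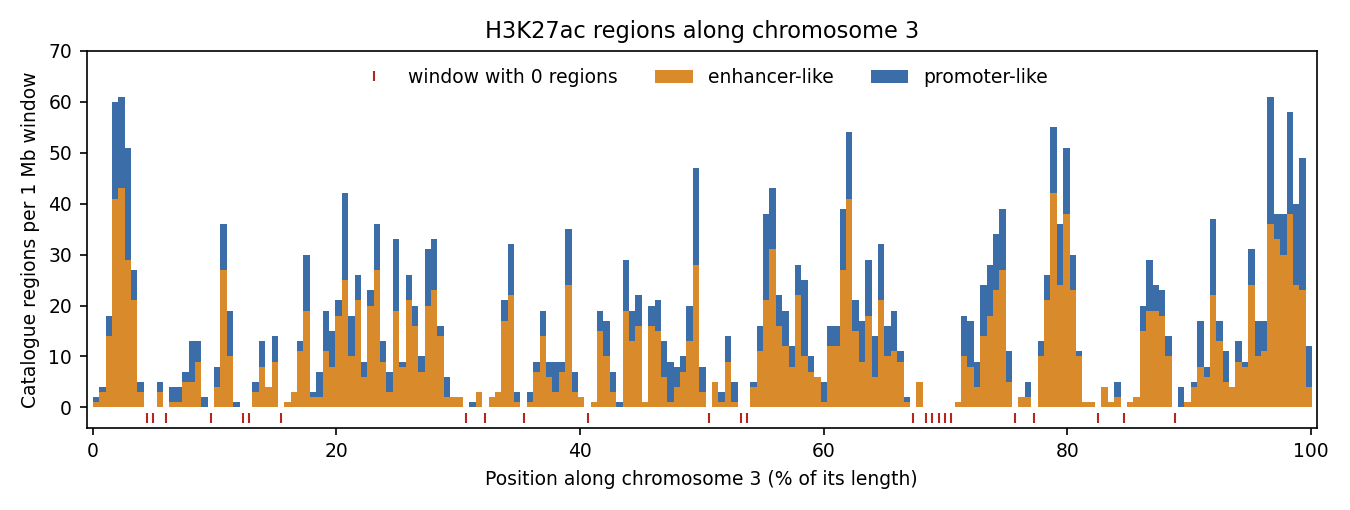
Catalogue regions in each 1 Mb window along chromosome 3, as a percentage of its length, with enhancer-like and promoter-like regions stacked and a red tick under each of the 25 windows with 0 regions. The highest bars, 61 regions each, stand near both ends, and empty windows are scattered through the inner part.

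Regions in thinly filled windows were mostly of 1 tissue. The 46 windows with 1 to 5 regions held 134 regions in all, of which 82.8% were found in 1 tissue, against 62.5% in windows with 6 to 19 regions and 62.3% in windows with 20 or more. On the other autosomes the thin windows also had the highest share, 75.1%, against 65.6% and 57.3%. Of the 87 enhancer-like regions in the thin windows, 85 were found in 1 tissue. Of the 47 promoter-like regions there, 6 (12.8%) were found in all 8 tissues, against 32.4% in windows with 20 or more regions. In thin windows of the other autosomes 31.02% of promoter-like regions were found in all 8. These shares were not tested, because 134 regions on 1 chromosome give no replicates, and the window counts come from the same regions as the shares. The 1-tissue regions of the thin windows came most often from liver (39 of 111), pancreas (17), colon (16) and skeletal muscle (15). These tissues had 502, 177, 363 and 319 of all 1809 1-tissue regions of chromosome 3, in the same order. The thin windows were not tested against these counts.

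Long gaps, stretches of at least 500 kb with no peak of either mark in any of the 31 lists, took up a large part of the chromosome. Chromosome 3 had 52 of them, 46.9 Mb in all or 24.6% of its length, against 10.9% on the other autosomes pooled. Only chromosome 21 had a larger share, 27.8%. Gaps of 1 Mb or more numbered 15 and took up 10.7% of chromosome 3 and 4.06% of the other autosomes. In single lists, the share of 100 kb windows without an H3K27ac peak was 70.5 ± 2.48% on chromosome 3 and 57.4 ± 3.66% elsewhere (SD, n = 8 tissues). The difference of 13.2 ± 1.93 points was positive in 8 of 8 tissues (p = 0.00781 and adjusted p = 0.0137, exact two-sided sign-flip permutation test).

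Regions were also thinly spread outside the gaps. Counted per Mb of 100 kb windows with a peak of any of the 31 lists, chromosome 3 held 23.4 catalogue regions, again the lowest of the 22, where the median of the other autosomes was 31.2. The log2 ratio to the other autosomes on this measure was -0.52 for H3K27ac peaks, -0.54 for H3K4me3 peaks, -0.54 for enhancer-like regions and -0.64 for promoter-like regions, each past the threshold of the exact permutation test. The median distance from a region to its neighbour was 12.8 kb, the highest of the 22 autosomes.

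The 5 longest gaps on chromosome 3, in calJac3 coordinates, ran from 133240766 to 135759091 (2.52 Mb), from 129599733 to 131180982 (1.58 Mb), from 100118254 to 101648310 (1.53 Mb), from 162126965 to 163567796 (1.44 Mb) and from 60568313 to 61978574 (1.41 Mb). The first was the fourth longest gap of any autosome. The first pair of gaps shares its nearest catalogue regions, so the 5 gaps have 8 flanking regions. All 8 were found in 1 tissue, and 7 were enhancer-like, the exception being the promoter-like region 0.189 kb to the left of the gap that starts at 100118254. Over all chromosome 3 regions these shares were 63.3% and 66.8%, and the difference was not tested. Flanking regions could be distant, as at 1528 kb to the right of that gap. H3K4me3 peaks lay within 50 kb in 13 lists to its left and in 11 lists to the right of the gap that ends at 61978574.

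The first pair of these gaps lay inside the longest autosomal stretch without a catalogue region. It ran from 129348356 to 135872707 and measured 6.52 Mb, and the next longest on another autosome was 5.37 Mb on chromosome 16. The 31 lists still held 15 H3K27ac peaks and 24 H3K4me3 peaks in it, at 19 separate places, of which 16 were marked in 1 list. H3K27ac appeared there in 9 of 16 lists, with at most 5 peaks in a list. None overlapped a peak of the other replicate, which follows from the rule that chose the stretch. One place within it was marked repeatedly. From 132523096 to 132525899, H3K4me3 was called in 14 of 15 lists, colon replicate 1 being the exception, with a median of 1707 bp covered over all 15, while H3K27ac was called there in 0 of 16.

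That place belongs to a small class. A catalogue of H3K4me3 regions built in the same way, except that heart had 1 list, held 921 regions on chromosome 3, 4.83 per Mb against 8.34 on the other autosomes and again the lowest of the 22. Of these, 431 (46.8%) were found in all 8 tissues, against 46.7% elsewhere, and 95 (10.3%) overlapped no H3K27ac peak of any list, against 8.40%. Regions of 1 tissue made up 26.1% (240 of 921) on chromosome 3 and 20.3% elsewhere. None of these shares was tested.

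The longest run of consecutive catalogue regions found in the same single tissue lay on chromosome 3 and belonged to colon. It was noticed after the values were seen. It held 26 colon regions in a row, from 42811104 to 44064592 (1253 kb), 22 enhancer-like and 4 promoter-like, and the next longest runs on any autosome held 19 liver regions on chromosome 6 and 16 colon regions on chromosome 5. H3K27ac peaks in the run numbered 39 in colon replicate 1 and 41 in replicate 2, covering 41.6 and 24.9 kb. In the 14 H3K27ac lists of other tissues, 4 had a peak and none had more than 2. H3K4me3 peaks numbered 5 and 6 in the colon lists and 0 in each of the 13 lists of other tissues.

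In colon both marks were thus present over this stretch, and in the other tissues it was almost blank. The run was defined by regions found in colon alone. Its lack of reproducible H3K27ac regions of other tissues is therefore the rule that chose it. The window from 43000001 to 44000000 held 23 catalogue regions, all from colon alone, and was 1 of 3 such windows among 1844 autosomal windows with 10 or more regions. Most peaks of the run were in the weaker part of their lists. The strongest colon H3K4me3 peak in the run was at percentile 31.9 of fold enrichment in replicate 1 and 29.2 in replicate 2. The strongest colon H3K27ac peak in the run ranked higher, at percentiles 86.5 and 88.3. Among the 20000 strongest peaks of each colon H3K27ac list, which are 49.4% of replicate 1 and 56.8% of replicate 2, the run kept 11 of 39 (28.2%) and 14 of 41 (34.1%), and its mean covered length fell from 33.2 to 16.6 kb. Its last member, from 44058126 to 44064592, was the longest restricted colon region of the chromosome, with 6.21 kb covered in replicate 1 and 4.97 kb in replicate 2, an enhancer-like region at percentiles 69.0 and 64.0 of fold enrichment in those lists. The 1 Mb window that follows was not blank in other tissues, with 26 and 28 H3K27ac peaks in skeletal muscle and 20 and 12 in spleen.

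**Figure D5:**
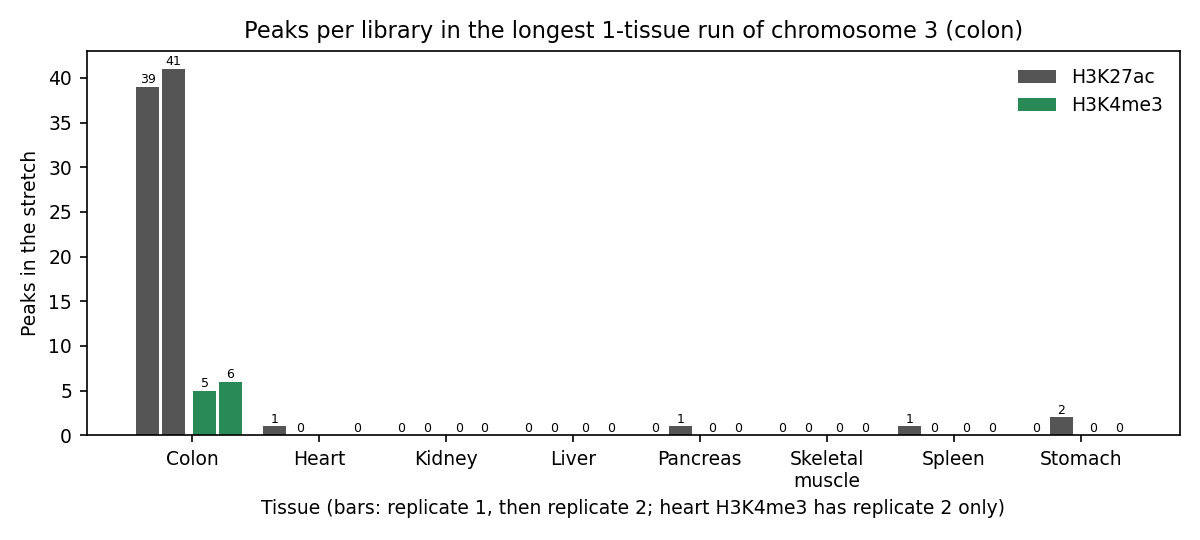
Number of peaks in each list within the stretch from 42811104 to 44064592, by tissue, with H3K27ac and H3K4me3 as separate bars and replicate 1 before replicate 2. The colon H3K27ac lists hold 39 and 41 peaks, the colon H3K4me3 lists 5 and 6, and no list of another tissue more than 2.

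Other tissues had shorter runs. The longest liver run held 13 regions from 37445582 to 37923453, 7 of them enhancer-like, with 14 and 19 H3K27ac peaks in the liver replicates and 10 H3K4me3 peaks in each. Unlike the colon run, it was marked by H3K4me3 in all 13 lists of other tissues, with at most 2 peaks in each. Another colon run held 11 regions from 141737787 to 141834557, a denser stretch of 96.8 kb.

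By tissue, regions found in 1 tissue alone were most numerous in liver (502), colon (363) and skeletal muscle (319), followed by pancreas (177), spleen (173), kidney (130), stomach (108) and heart (37). Liver, colon and skeletal muscle thus supplied most of them, and the lists also differed in length. Of 1-tissue enhancer-like regions, liver gave 27.2% on chromosome 3 and 27.8% on the other autosomes. For colon these shares were 20.6% and 17.6%, and for skeletal muscle 17.6% and 20.3%. They were not tested. Each tissue had its richest window at a different place. The richest liver window, from 94000001 to 95000000, held 23 liver-only regions among 47 and 53 and 58 H3K27ac peaks in the liver lists, against 6 to 34 in the lists of other tissues. The richest skeletal muscle window, from 186000001 to 187000000, held 12 of 38, and the richest pancreas window, from 107000001 to 108000000, held 9 of 22.

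The longest restricted region of each tissue is an example, and its lack of H3K27ac in other tissues is the rule that chose it. In skeletal muscle it ran from 94024669 to 94030477 and covered 5.81 kb in replicate 1 and 5.46 kb in replicate 2, at percentiles 87.2 and 86.8 of fold enrichment. H3K4me3 covered 5.70 kb of it in skeletal muscle replicate 2 and 0 kb in replicate 1, so the class of this region rests on 1 list. In liver it ran from 94111454 to 94116362, in the same 1 Mb window, and covered 4.91 and 1.39 kb, with H3K4me3 of 2.23 and 1.61 kb in liver and of at most 0.727 kb in 2 lists of other tissues. A region restricted to muscle and one restricted to liver thus shared a 1 Mb window, which held 47 catalogue regions, 23 of them liver-only.

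Pancreas, kidney, spleen and stomach had shorter examples. The pancreas region from 164497455 to 164501346 covered 2.63 and 3.24 kb. The kidney region from 126547670 to 126550658 covered 2.99 and 0.739 kb, and the spleen region from 71380656 to 71382576 covered 1.92 and 0.832 kb. All 3 were enhancer-like, and the kidney and spleen replicates differed over 2-fold in covered length. The stomach region from 21730038 to 21732552 covered 2.35 and 2.44 kb and carried H3K4me3 in the stomach lists alone. The heart region from 15941466 to 15943015 was the weakest, with 0.440 and 1.53 kb at percentiles 12.9 and 33.6 of fold enrichment, no H3K4me3 in the heart list and H3K4me3 in 7 lists of other tissues.

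Restricted regions of one tissue that lay within 12 kb of each other were joined into clusters, each described by the H3K27ac it covered. The largest by restricted length was the colon cluster from 44054480 to 44064592, with 9.68 and 6.99 kb of H3K27ac in the 2 replicates. The liver cluster from 37857399 to 37891451 had 9 members, the most on the chromosome, with 8.17 and 6.22 kb of H3K27ac and 8.17 and 9.37 kb of H3K4me3, and no H3K4me3 in other tissues, while H3K27ac of at most 0.588 kb was called in 3 lists of other tissues. This liver cluster lay within the liver run described above. None of its H3K27ac was among the 20000 strongest peaks of the liver lists, which also held for the pancreas and skeletal muscle clusters in their own lists. The stomach cluster from 21725091 to 21732552 had 3 members and 6.03 and 5.53 kb.

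Clusters in the other tissues were smaller or less exclusive. The skeletal muscle cluster from 187300448 to 187310112 had 5 members with 5.28 and 6.01 kb. The pancreas cluster from 107260044 to 107270276 had 5 members with 2.258 and 4.655 kb, inside the richest pancreas window. The spleen cluster from 154437844 to 154442803 had 2 members with 2.30 and 3.64 kb. The kidney cluster from 150626342 to 150644586 had 4 members with 5.05 and 4.46 kb, and its span also held an H3K27ac peak in 13 of 14 lists of other tissues, of at most 0.599 kb. The heart cluster from 15941466 to 15960230 had 3 members, and its span held H3K27ac of other tissues in 7 lists. In these last clusters the members were restricted, while the ground between them was not.

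Regions shared by all tissues stood at the other end. The 3 longest of the 282 were promoter-like and ran from 189934917 to 189942791, from 118467387 to 118474030 and from 152165194 to 152171727. The first was longest in liver, with 6.59 and 7.39 kb of H3K27ac, and in kidney, with 3.74 and 3.44 kb, and spleen had the least, 0.510 and 0.727 kb. The second varied less, from 2.18 kb in heart replicate 1 to 5.31 kb in liver replicate 2, with a median of 3.51 kb over the 16 lists. The third had the most in colon, 5.81 and 5.83 kb, and the least in skeletal muscle, 1.53 and 1.05 kb. A region called in every tissue could therefore still differ several-fold in the length that was acetylated.

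Enhancer-like regions never reached all 8 tissues on chromosome 3, where 49 did on the other autosomes, a share of 0.129%. Both that reached 7 tissues lay close to H3K4me3 peaks. The region from 70444976 to 70448981 lacked skeletal muscle, with 0 kb in both its lists and a median of 2.81 kb over the 16, and lay 4.15 kb from the nearest H3K4me3 peak. It was longest in colon, at 3.88 and 3.10 kb. The region from 118475885 to 118476786 lacked colon as a reproducible region, although colon replicate 2 had 0.458 kb there, and lay 2.09 kb from H3K4me3. It was the neighbour of the shared promoter-like region from 118467387 to 118474030.

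Among the 262 enhancer-like regions found in exactly 2 tissues, colon with stomach was the most frequent pair, with 52 regions (19.8%, against 16.8% on the other autosomes). Colon with liver followed with 28 (10.7%, against 7.42%), and kidney with liver and liver with pancreas had 23 each (8.78%, against 9.12% and 9.61%). The order of the pairs after the first thus differed from that on the other autosomes, where both of these pairs were more frequent than colon with liver. Colon and stomach, both organs of the digestive tract, thus shared the largest number, and colon with heart shared 0. The shares were not tested against the other autosomes.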

How the data were processed

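ChIP-seq peak lists (narrowPeak, 1 per ChIP library) were used as the authors deposited them. MACS2 2.1.1.20160309, Bowtie 1.1.2, bedtools 2.26 and SAMtools 1.3.1 appear, with no stated role, in the submitters' processing notes. How inputs served in peak calling is not given in the sources used. The build calJac3 was taken from the peak names. The deposited columns hold a score, a fold enrichment (a ratio), a −log10 p-value and a −log10 q-value, all set by the authors' peak caller. Fold enrichment was used only to rank peaks within 1 list. Read totals were not used here, so depth is unknown.

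Computation used scipy 1.17.1 and numpy 2.4.6 under Python 3.11.15, with matplotlib 3.10.9 for figures. The code was tested on simulated data. Chromosome length was the last peak end in any list. Values per tissue were means over lists for peaks, and came from the regions found in both replicates for regions. They were compared by exact two-sided sign-flip permutation tests. The chromosome 3 share between tissues was tested by 100000 relabellings of the 16 H3K27ac lists. Benjamini-Hochberg adjustment was made over these 14 planned tests. Samples were grouped by their titles.

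The chromosome, classes, tests and lists were chosen with earlier results of these data known. Named regions are the 5 longest gaps, the 5 densest and the emptiest 1 Mb windows, the longest restricted region and the largest restricted cluster per tissue, the 3 longest regions of all 8 tissues and the enhancer-like regions of 7 or more. The comparisons with chromosomes 21 and 16, the colon run and the richest windows per tissue were added after the values were seen. No gene or sequence was assigned, because no annotation or genome of calJac3 was used here.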

Additional observations from a re-analysis of the deposited data

How the results depend on the processing

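Limits first. Density rests on called peaks, and a longer list marks more of every chromosome. The choice of chromosome 3 fixed the direction of the tests of lower density and of empty windows. Their passing is therefore no evidence that it is sparse. Assembly gaps, mappability and read depth were not analysed here, and the labels do not tie replicates to animals. Under the 20000 strongest peaks per list, a −log10 q minimum of 5, overlap of at least 50%, the median over the other autosomes, length counted as marked windows, class by H3K4me3 of the same tissue and leaving out each list, where each applies, the density tests of both marks, of reproducible regions and of both classes, and those of replicate overlap, restricted share and empty windows, kept their direction and passed the threshold. The 20000 strongest peaks per list gave a difference between marks of 0.070 and in region length of 40.4 bp, both past the threshold, and reduced the catalogue on chromosome 3 to 1464 regions with an enhancer-like share of 49.3%. That share was 68.8% when classed by the central 300 bp. The median of the other autosomes turned the difference between marks to -0.014. Chromosome 3 held 4.61% of autosomal catalogue regions and 4.39% of all. Gaps of 500 kb or more took up 24.6% of chromosome 3 for peaks with −log10 q of at least 5 and 40.1% when only catalogue regions closed them. Leaving out each list gave 2.04 to 2.62 points for strength percentile (call lost without 5 lists), 0.546 to 1.05 points for the range between tissues, 1.60 to 2.34 points for the enhancer-like share and 0.079 to 0.145 for the difference between classes. It gave 4.56 to 4.86% for the catalogue share, 66.8 to 71.3% for the enhancer-like share of the catalogue, 24.6 to 26.4% for gaps, -0.67 to 0.35 points for the enhancer-like share against chromosome 21, which turned positive without liver H3K4me3 replicate 1 (0.027), skeletal muscle H3K27ac replicate 2 (0.0076), spleen H3K27ac replicate 1 (0.0087) or stomach H3K27ac replicate 1 (0.354), and 1.33 to 1.98 points for the restricted share against chromosome 16. For the restricted share against chromosome 21 it gave 0.867 to 1.99 points, for the enhancer-like share against chromosome 16 -1.12 to -0.267 points and for region length 17.6 to 32 bp. The cause of these changes was not tested. The strongest-peak setting holds fewer peaks, and where a list is left out, any other list of the tissue is taken as it stands. With a replicate block the difference between marks was 0.0095 (exact permutation test, p = 0.781). Over chromosomes, the differences between replicates in one mark were correlated with those in the other. The correlation was highest in colon (r = 0.64). It was 0.29 in spleen, 0.27 in pancreas, 0.24 in liver, 0.12 in stomach, 0.03 in skeletal muscle and -0.23 in kidney. These correlations were not tested, and the small ones may not differ from 0. Since not every tissue exceeded 0.1, the numbers were not taken to pair samples. Of the 17 covered lengths of named restricted regions, clusters and the colon run, 11 moved by more than 1 SD of the replicates with the 20000 strongest peaks and 0 with a −log10 q minimum of 5. Leaving out 1 of 2 replicates cannot move such a mean by 1 SD and tests nothing here.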
